A study of Mus musculus with 2 samples.

Results

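The genes described here are those of the Hox clusters, taken as every symbol in the RNA-Seq table that matched Hox, a cluster letter from a to d and a number in full. They came to 32 of the 18159 genes listed, with 9 members of the HoxA cluster, 9 of HoxB, 8 of HoxC and 6 of HoxD. The table held 1 library from *Dnmt1*-WT and 1 from *Dnmt1*-KO jejunum, as FPKM (fragments per kilobase of transcript, scaled for the number of mapped fragments, so a level per length). *Dnmt1* encodes the DNA methyltransferase that copies CpG methylation onto newly replicated DNA, and the comparison asked how transcript levels in gut muscle differed when it was deleted from smooth muscle cells.

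Both libraries came from the jejunal muscle layer, separated from the mucosa, of mice on the C57BL/6 background at 15 days of age. The strain label of both names the transgene Tg(Myh11-cre,-EGFP)2Mik, in which the smooth muscle *Myh11* promoter drives Cre and eGFP, together with floxed *Dnmt1* alleles (Dnmt1lox/lox). The genotype label was Dnmt1 WT for one library and Dnmt1 KO for the other, while the free-text description of both read smMHCCre-eGFP/+;Dnmt1-/-. The groups used here follow the genotype label. The paper gives its *Dnmt1*-WT mice as smMHCCre-eGFP/+. Males and females were used for each genotype, and the sources used here do not give how their RNA was combined. Cre was limited to cells that use the *Myh11* promoter, so other cells of the muscle layer kept their *Dnmt1* alleles.

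Hox genes encode homeodomain transcription factors that give cells their position along the body axis. Within a cluster, genes are numbered by paralog group, and the low numbers lie at the 3′ end and are used further towards the head than the high numbers. In the gut the mesoderm that forms the muscle layer carries a nested set of Hox genes, HOX proteins bind DNA together with PBX and MEIS homeodomain partners, and Polycomb and Trithorax proteins keep the clusters off or on after the embryo has set them.

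*Dnmt1* itself went from 11.58 FPKM (*Dnmt1*-WT) to 7.58 FPKM (*Dnmt1*-KO), a ratio of 0.655, with 3 and 5 transcript variants listed. This whole-gene value also counts cells without Cre and any transcript left after the deletion. All 11 smooth muscle markers were present in both libraries and all were lower in *Dnmt1*-KO, with *Acta2*, smooth muscle actin, at 5408 and 4016 FPKM. Markers of other cell types were also above 0 in both libraries as list sums, and those of adipocytes, leukocytes, endothelium and enterocytes were higher in *Dnmt1*-KO. With 1 library per genotype there was no test, and no difference below has a replicate check within these libraries. The paper separately reports qPCR of the muscle layer in replicate mice of this age. There *Myh11*, *Srf* and *Acta2* were significantly lower in *Dnmt1*-KO.

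The Hox level was concentrated in the middle of the clusters in both genotypes. Of the 32 genes, 26 were above 0 in *Dnmt1*-WT, 29 in *Dnmt1*-KO and 25 in both. Paralog groups 4 to 8 held 83.0% (*Dnmt1*-WT) and 84.9% (*Dnmt1*-KO) of the summed Hox FPKM, groups 1 to 3 summed to 66.94 and 43.77 FPKM, and groups 9 to 13 to 2.64 and 4.54 FPKM. *Hoxb5* and *Hoxa5* stood highest in both libraries. Most of the other well-expressed members were lower in *Dnmt1*-KO, whereas the HoxD genes, which were low, were higher. The summed Hox level was 408.18 FPKM in *Dnmt1*-WT and 320.14 FPKM in *Dnmt1*-KO, a ratio of 0.784. In RNA from a whole muscle layer, fewer cells that use a gene and less of its RNA per cell cannot be told apart.

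**Figure D1:**
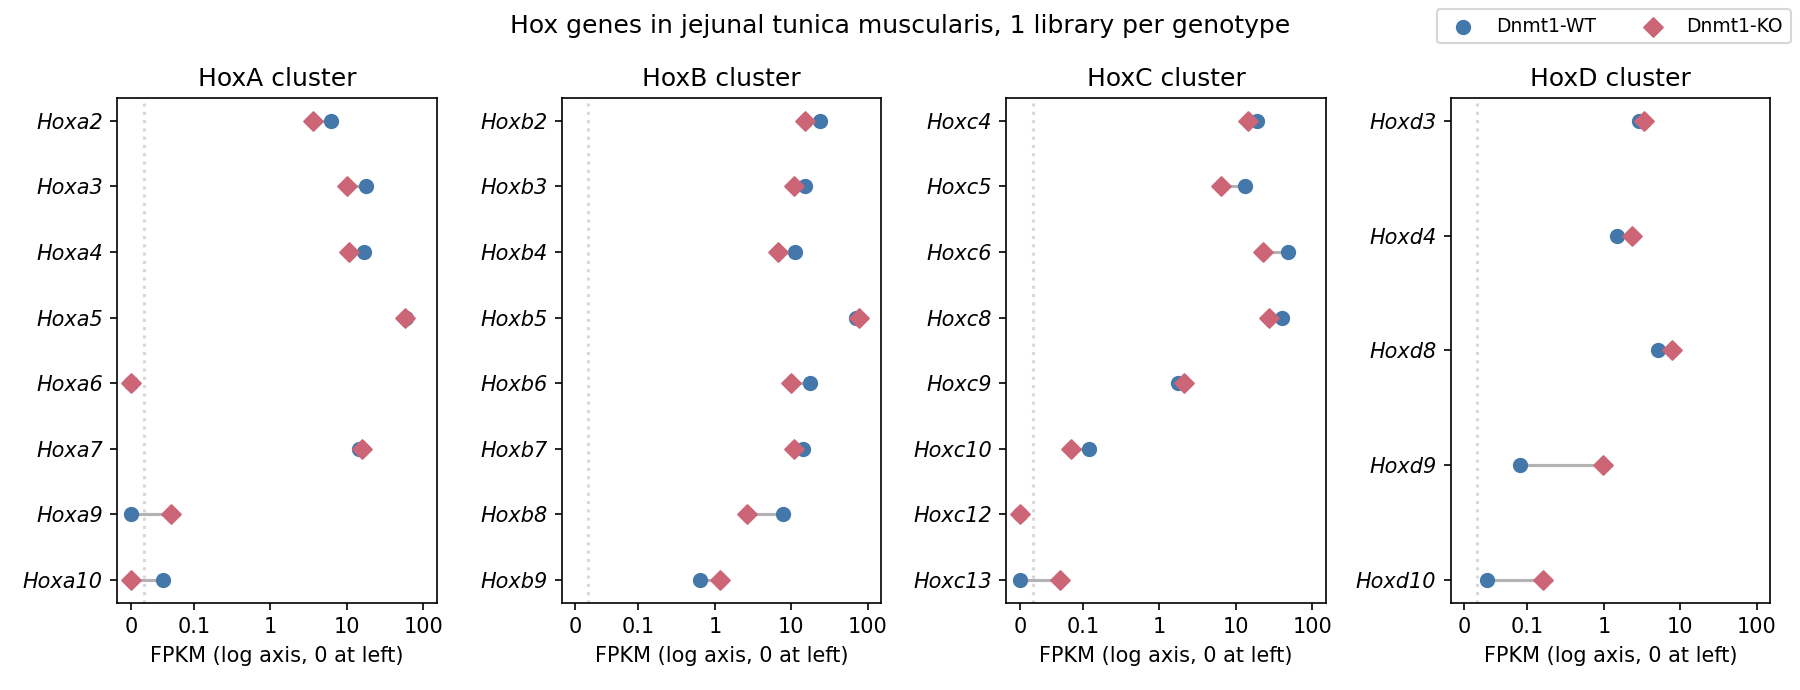
Level of the 29 Hox genes of paralog group 2 and above in FPKM on a log axis with 0 set at the left, by cluster and in order of paralog number. Circles are the *Dnmt1*-WT library and diamonds the *Dnmt1*-KO library, 1 each, and grey bars join them. The widest gaps among genes above 0 in both are at *Hoxd9* and *Hoxd10*, which stayed below 1 FPKM, and at *Hoxb8*, which went from 7.81 to 2.61 FPKM.

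Over the 25 Hox genes above 0 in both libraries, 9 were higher in *Dnmt1*-KO, which is 36% beside 50.3% of the 16102 genes that could be compared this way. A ratio (*Dnmt1*-KO over *Dnmt1*-WT) of 2 or more was met by 2 members (8%), *Hoxd9* and *Hoxd10*, beside 11.8% of all genes. A ratio of 0.5 or less was met by 3 members (12%), *Hoxb8*, *Hoxc5* and *Hoxc6*, beside 4.98% of all genes. With the factor set at 1.5, 5 members (20%) were higher, beside 19.7% of all genes, and 10 (40%) were lower, beside 12.6%. The lower side thus held a larger share of the Hox genes than of the table, and the higher side about the same share or a smaller one.

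The split was much alike among expressed genes. Of the 21 Hox genes at 1 FPKM or more in at least 1 library, 7 were higher in *Dnmt1*-KO, or 33.3%, beside 49.0% of 13769 genes at that level. Their median log2 ratio, with 0.1 FPKM added to each value, was -0.48, and that of the 13865 genes at this level, those at 0 in 1 library included, was -0.01. The middle 90% of these genes lay between -0.85 and 1.58. *Hoxb8*, *Hoxc5* and *Hoxc6* were below that range, and no Hox gene at 1 FPKM was above it. Each of these 21 genes lay on the same side of 1 when the libraries were rescaled to equal medians, trimmed means, upper quartiles or FPKM sums.

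The most abundant pair differed little between the libraries. *Hoxb5*, a paralog group 5 gene also known from enteric neural crest cells, was at 70.06 FPKM in *Dnmt1*-WT and 76.71 FPKM in *Dnmt1*-KO, a ratio of 1.09. *Hoxa5*, which takes part in patterning the mesenchyme of the lung and foregut, was at 60.25 and 57.55 FPKM, a ratio of 0.955. They ranked first and next in both libraries, and *Hoxb5* lay above 94.8% of all listed genes in *Dnmt1*-WT. The group 5 sum was thus 143.44 and 140.73 FPKM, and its share of all Hox FPKM was 35.1% and 44.0%. The group's remaining member, *Hoxc5*, was not level with them.

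The HoxA cluster lies on the minus strand at chr6:52155590-52240854 (GRCm38, from the first to the last listed gene, as for the clusters below), and its sum was 116.89 FPKM in *Dnmt1*-WT and 98.27 FPKM in *Dnmt1*-KO. Of its 6 genes above 0 in both, 1 was higher in *Dnmt1*-KO. *Hoxa2*, which patterns the hindbrain and branchial arches in the embryo, was at 6.16 and 3.61 FPKM, a ratio of 0.586. *Hoxa3*, a gene of pharyngeal organ formation, was at 18.04 and 9.98 FPKM, a ratio of 0.553. *Hoxa4*, its neighbour on the 5′ side, was at 16.98 and 10.72 FPKM, a ratio of 0.631. These 3 adjoining genes were thus lower by like factors, while *Hoxa5*, next in line, was close to level. Annotated exons of *Hoxa2* and *Hoxa3* both overlap those of *Gm28308* on the same strand. Their reads could thus have been divided in more than one way. *Hoxa7*, which helps pattern the thoracic skeleton, was the HoxA gene above 0 in both that was higher. It was at 14.54 and 15.68 FPKM, a ratio of 1.08. *Hoxa6* was listed at 0 in both libraries although it lies between *Hoxa5* and *Hoxa7*.

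The HoxB cluster, on the plus strand at chr11:96271457-96368256 (GRCm38), had the largest sum in both libraries, at 160.23 FPKM in *Dnmt1*-WT and 134.14 FPKM in *Dnmt1*-KO. *Hoxb2*, a hindbrain patterning gene, was at 23.70 and 15.01 FPKM, a ratio of 0.633. *Hoxb3*, of the same paralog group as *Hoxa3*, was at 15.25 and 10.93 FPKM, a ratio of 0.717. *Hoxb4*, known for its effect on blood stem cells, was at 11.16 and 6.73 FPKM, a ratio of 0.603. All of these were lower in *Dnmt1*-KO, as in HoxA, and *Hoxb5* interrupted the series. *Hoxb6*, a gene of the lateral plate mesoderm, was at 17.48 and 9.93 FPKM, a ratio of 0.568. *Hoxb7*, also used in the developing kidney duct, was at 14.13 and 10.95 FPKM, a ratio of 0.775. *Hoxb8*, a gene of the trunk and spinal cord and of early myeloid cells, was at 7.81 and 2.61 FPKM, and its ratio of 0.334 was the lowest of the Hox genes above 0 in both libraries. *Hoxb9*, which lies upstream of *Hoxb8* and patterns the thoracic ribs, was on the other side at 0.64 and 1.16 FPKM, a ratio of 1.81.

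The HoxC cluster, on the plus strand at chr15:102921103-103036852 (GRCm38), had the lowest ratio of sums, 0.602, from 121.51 FPKM in *Dnmt1*-WT to 73.12 FPKM in *Dnmt1*-KO. Its share of all Hox FPKM was 29.8% and 22.8%. *Hoxc6*, a gene of forelimb-level motor neurons and trunk mesoderm, held the third place in *Dnmt1*-WT at 47.36 FPKM and was at 22.77 FPKM in *Dnmt1*-KO, a ratio of 0.481. *Hoxc5*, its neighbour on the 3′ side, was at 13.13 and 6.47 FPKM, a ratio of 0.493. Both were thus near 0.5 of their *Dnmt1*-WT level, and *Hoxc5* was just above the 0.5 limit when the libraries were rescaled by median, trimmed mean or upper quartile. *Hoxc8*, a gene of the thoracic skeleton and brachial motor neurons, was at 40.46 and 27.29 FPKM, a ratio of 0.674. *Hoxc4*, at the 3′ end of the cluster, was at 18.71 and 14.39 FPKM, a ratio of 0.769. *Hoxc9*, known for setting thoracic identity in motor neurons, was the HoxC gene above 0 in both that was higher. It was at 1.73 and 2.08 FPKM, a ratio of 1.20. *Hoxc10* was at 0.12 and 0.07 FPKM, *Hoxc12* was listed at 0 in both and *Hoxc13* was listed at 0 in *Dnmt1*-WT and at 0.05 FPKM in *Dnmt1*-KO.

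The HoxD cluster, on the plus strand at chr2:74691924-74765142 (GRCm38), was the lowest of the clusters and went the other way. Its sum was 9.55 FPKM in *Dnmt1*-WT and 14.61 FPKM in *Dnmt1*-KO, a ratio of 1.53, and its share of all Hox FPKM was 2.34% and 4.56%. All 5 of its genes above 0 in both were higher in *Dnmt1*-KO, and 3 of these reached 1 FPKM. *Hoxd8*, the most abundant of them, was at 5.04 and 7.67 FPKM, a ratio of 1.52. *Hoxd3*, which patterns the cervical vertebrae, was at 2.91 and 3.39 FPKM, a ratio of 1.16. *Hoxd4*, of the same paralog group as *Hoxa4*, *Hoxb4* and *Hoxc4*, was at 1.49 and 2.36 FPKM, a ratio of 1.58. The named exons of *Hoxd3* and *Hoxd4* overlap on the same strand, so reads could have been divided between them in more than one way. *Hoxd9*, a gene of the limb and lumbar trunk, was at 0.08 and 0.97 FPKM, and *Hoxd10*, a gene of the hindlimb and lumbar spinal cord, at 0.03 and 0.16 FPKM. Their ratios of 12.1 and 5.33 rest on low *Dnmt1*-WT values, that of *Hoxd10* being the lowest level above 0 in either library.

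**Figure D2:**
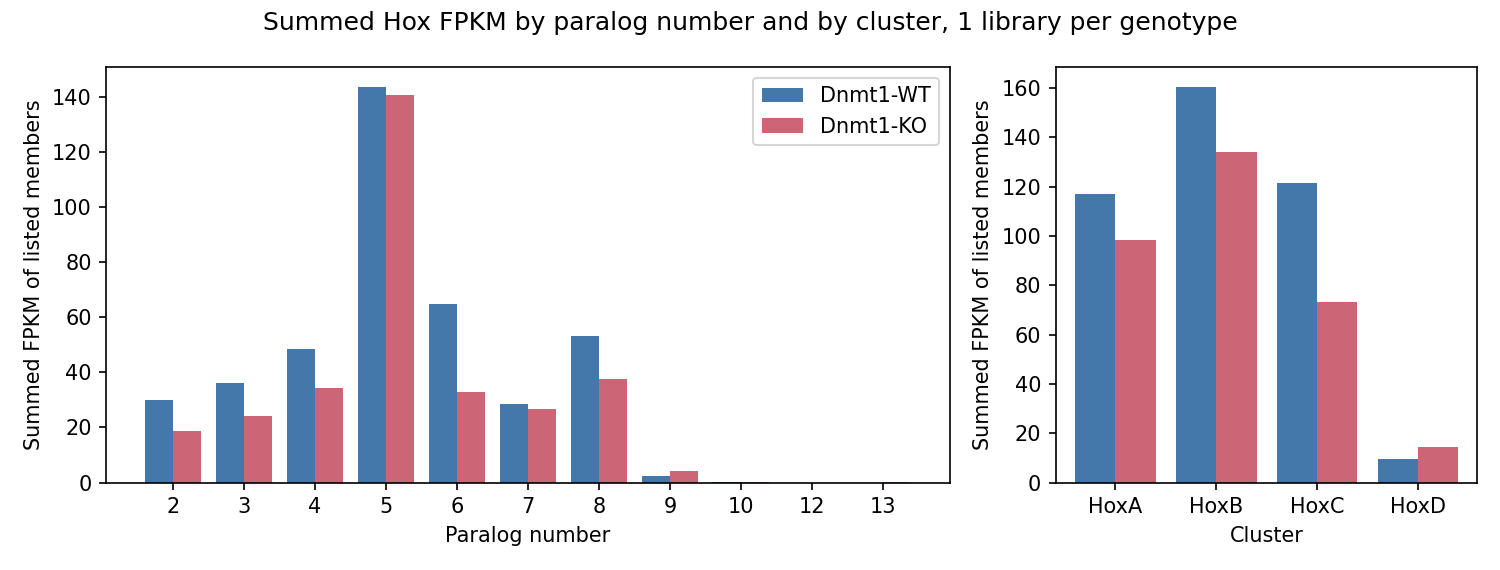
Summed FPKM of the Hox genes by cluster and by paralog group from group 2 on, as bars that start at 0, with *Dnmt1*-WT beside *Dnmt1*-KO and 1 library each. HoxC shows the widest gap, from 121.51 to 73.12 FPKM, and group 5 is the tallest pair among the paralog groups at 143.44 and 140.73 FPKM.

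Read across the clusters by paralog number, the lower level in *Dnmt1*-KO ran through groups 2, 3, 4, 6 and 8. Group 2 summed to 29.86 FPKM in *Dnmt1*-WT and 18.62 FPKM in *Dnmt1*-KO, a ratio of 0.624. Group 3 summed to 36.20 and 24.30 FPKM, a ratio of 0.671, and group 4 to 48.34 and 34.20 FPKM, a ratio of 0.707. The HoxD members of these groups, *Hoxd3* and *Hoxd4*, were higher in *Dnmt1*-KO. Group 6 had the lowest ratio of any group summing to 1 FPKM or more, at 64.84 and 32.70 FPKM, or 0.504. Groups 5 and 7 were the exceptions in this stretch. Group 7 summed to 28.67 and 26.63 FPKM, a ratio of 0.929, with *Hoxa7* slightly higher and *Hoxb7* lower. Group 8 summed to 53.31 and 37.57 FPKM, a ratio of 0.705, in which *Hoxb8* and *Hoxc8* were lower and *Hoxd8* was higher.

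Group 9 differed from the groups before it. *Hoxb9*, *Hoxc9* and *Hoxd9* were each higher in *Dnmt1*-KO, and the group summed to 2.45 FPKM in *Dnmt1*-WT and 4.26 FPKM in *Dnmt1*-KO, a ratio of 1.74. Genes of groups 10 to 13 were at 0.16 FPKM or below in both libraries. The members listed at 0 in *Dnmt1*-WT and above 0 in *Dnmt1*-KO were *Hoxa9*, *Hoxb1*, *Hoxc13* and *Hoxd1*, or 12.5% of the 32, beside 5.25% of all listed genes. *Hoxb1*, the hindbrain gene of group 1, was the highest of these at 0.11 FPKM. Both shares are over all listed genes, although only genes at 0 in *Dnmt1*-WT could be counted. They therefore also depend on how many genes were at 0 in *Dnmt1*-WT, and nothing about Hox genes is read from them. *Hoxa10* was the 1 member above 0 in *Dnmt1*-WT only, or 3.12%, beside 2.92% of all genes, and was at 0.04 FPKM.

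**Figure D3:**
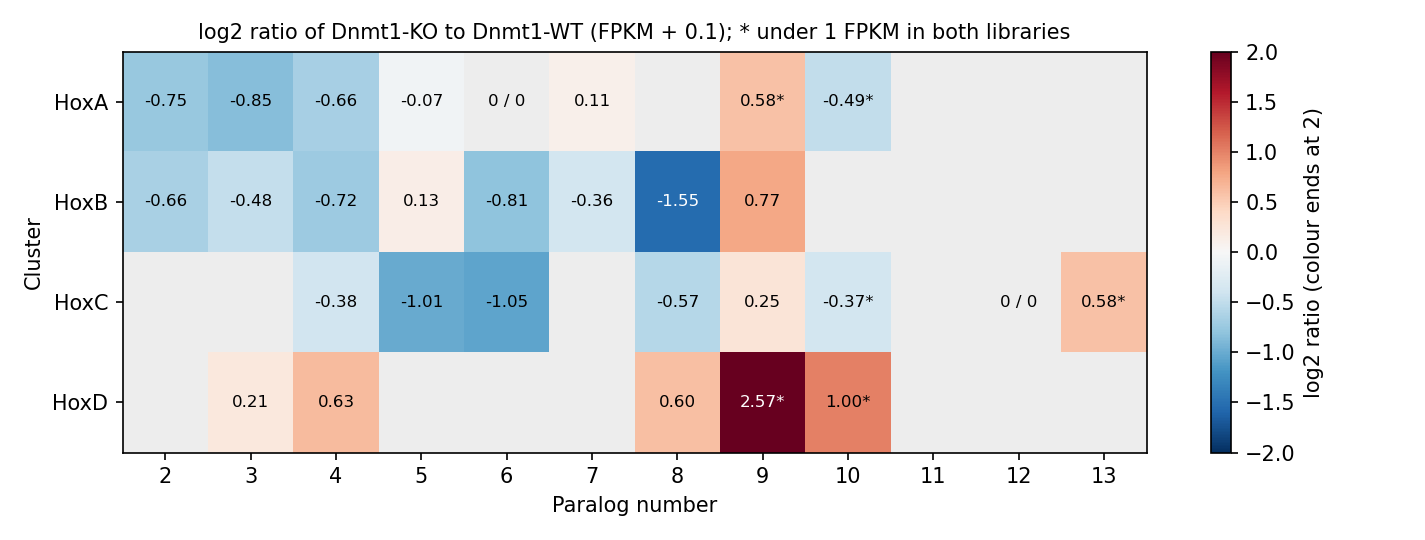
Log2 ratio of *Dnmt1*-KO to *Dnmt1*-WT, with 0.1 FPKM added to each value, for the Hox genes of paralog group 2 and above by cluster (rows) and paralog number (columns). Blue is lower and red higher in *Dnmt1*-KO, a star marks a gene below 1 FPKM in both libraries, grey cells hold no listed gene and 0 / 0 marks a gene at 0 in both. Groups 2 to 8 of HoxA, HoxB and HoxC are mostly blue, down to -1.55 at *Hoxb8*, and the HoxD row is red throughout.

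The order of the levels was much alike in both libraries. After *Hoxb5* and *Hoxa5* came *Hoxc6*, *Hoxc8*, *Hoxb2* and *Hoxc4* in *Dnmt1*-WT and *Hoxc8*, *Hoxc6*, *Hoxa7* and *Hoxb2* in *Dnmt1*-KO. Spearman's rho between the libraries was 0.948 across the 25 genes above 0 in both, a description across genes that share both libraries. At 10 FPKM or more, *Dnmt1*-WT had 14 Hox genes and *Dnmt1*-KO 10. With a single library per genotype, no spread is available to say which neighbours in this order differ. The number of transcript variants listed was the same in both libraries for 22 of the 25 genes, and for 3, *Hoxa4* and *Hoxd8* among them, it was lower in *Dnmt1*-KO.

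DNMT1 acts on CpG dinucleotides, and the 250 bases upstream of the start site are shown for the abundant *Hoxa5*, whose ratio was near 1, for *Hoxb8* with the lowest ratio and for *Hoxd9* with the highest. The sequences are from RefSeq (GRCm38.p6), read 5′ to 3′ on the strand of the gene, with each CpG in capitals. They lie at chr6:52204588-52204837 on the minus strand (*Hoxa5*), chr11:96281655-96281904 on the plus strand (*Hoxb8*) and chr2:74697513-74697762 on the plus strand (*Hoxd9*). GENCODE M21 starts *Hoxd9* at chr2:74697727, inside this window, so the last bases shown lie within the gene in that annotation.
Hoxa5: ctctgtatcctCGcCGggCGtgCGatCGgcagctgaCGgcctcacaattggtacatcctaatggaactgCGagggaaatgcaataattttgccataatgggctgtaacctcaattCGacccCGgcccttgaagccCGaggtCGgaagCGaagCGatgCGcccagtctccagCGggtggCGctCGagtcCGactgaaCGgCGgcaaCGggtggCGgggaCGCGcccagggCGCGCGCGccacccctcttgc
Hoxb8: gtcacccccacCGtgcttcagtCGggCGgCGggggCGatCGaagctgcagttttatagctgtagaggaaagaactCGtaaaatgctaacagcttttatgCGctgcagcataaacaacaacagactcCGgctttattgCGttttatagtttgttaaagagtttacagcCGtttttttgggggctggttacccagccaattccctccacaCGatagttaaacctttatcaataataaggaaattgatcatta
Hoxd9: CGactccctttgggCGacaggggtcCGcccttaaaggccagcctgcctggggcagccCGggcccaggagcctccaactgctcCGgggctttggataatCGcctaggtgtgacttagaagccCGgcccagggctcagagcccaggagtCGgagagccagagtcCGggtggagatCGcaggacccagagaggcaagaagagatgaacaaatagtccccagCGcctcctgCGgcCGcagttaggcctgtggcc

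The *Hoxa5* window held 28 CpG, more than 87.8% of the 16655 windows of the 13299 listed genes that have one. The *Hoxb8* window held 12 CpG and the *Hoxd9* window 13, more than 45.5% and 48.4% of windows. The G and C content was 63.6%, 44.4% and 65.2% in that order, so *Hoxb8* had nearly as many CpG as *Hoxd9* in a window much richer in A and T. The 17 Hox genes with an entry, which had 18 windows, held 3 to 28 CpG with a median of 12, against a median of 13 over all windows. Methylation of these windows was not analysed here. Of motifs searched on both strands, the CDX site TTTATNG was in 2 of the 18 Hox windows (*Hoxb8* and *Hoxd4*), or 11.1% beside 6.93% of all windows. The PBX-HOX site TGATTNAT was in 1 (*Hoxa2*), or 5.56% beside 1.57%. The homeodomain core TAATTA was in none beside 2.88%, and the retinoic acid receptor element DR5 (AGGTCA, any 5 bases and AGGTCA again) was in none and in 1 window of all. A match is only a run of letters, and with so few windows these shares are a description.

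The clusters also encode microRNAs, whose level was not analysed here. Only those with the miR-10 or the miR-196 seed (bases 2 to 8, which pair with target sites) are shown. Their mature sequences are from RefSeq (GRCm38.p6), with the seed in capitals.
miR-10a-5p: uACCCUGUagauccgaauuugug
miR-10b-5p: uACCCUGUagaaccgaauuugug
miR-196a-5p: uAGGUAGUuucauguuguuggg
miR-196b-5p: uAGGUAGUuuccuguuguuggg

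The miR-10a sequence lies in HoxB at chr11:96317186-96317208 and that of miR-10b in HoxD at chr2:74726074-74726096, both on the plus strand. The miR-196a sequence is encoded in HoxB, upstream of *Hoxb9*, at chr11:96265187-96265208 and in HoxC at chr15:102973365-102973386, both on the plus strand, and miR-196b in HoxA at chr6:52230129-52230150 on the minus strand. A match to the miR-196 seed was present in the longest annotated 3′ UTR of 9 of the 32 Hox genes, or 28.1%, beside 7.33% of 15980 genes. Of those at 1 FPKM or more, *Hoxa7* was higher in *Dnmt1*-KO and the other 5, *Hoxa4*, *Hoxa5*, *Hoxb6*, *Hoxb7* and *Hoxc8*, were lower, beside 14 of all 21 Hox genes at that level, so nothing about seed matches is read from it. A match to the miR-10 seed was present in 4, *Hoxa3* and *Hoxb3* among them, or 12.5% beside 14.2%. The median 3′ UTR was 869 bases for the Hox genes and 1238.5 bases for all.

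*Hoxb8* is the textbook target of miR-196, through a site that pairs along almost the whole microRNA, and it is shown because this gene had the lowest ratio. The site lies in its 3′ UTR at chr11:96284888-96284909 on the plus strand (GRCm38), with the bases that face the seed in capitals.
Hoxb8 site: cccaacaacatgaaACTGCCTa

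Of the 22 bases of miR-196a, 21 pair with this site by Watson-Crick rules, and the site differs from the full complement of miR-196a by A18G, counted from the site's 5′ end. That base faces the seed, so *Hoxb8* is not among the 9 genes with a perfect seed match. The next best site among the Hox genes, in *Hoxd8*, paired at 15 of 22 bases. *Gm53*, a long non-coding RNA gene at chr11:96251105-96264868 (GRCm38) that ends 295 bases before the miR-196a gene of HoxB, was listed at 0 in *Dnmt1*-WT and 0.96 FPKM in *Dnmt1*-KO. *Hoxd3os1*, the other non-coding gene listed of 20 looked for in and around the clusters, was at 0.03 FPKM in *Dnmt1*-WT and listed at 0 in *Dnmt1*-KO. A part of miR-196 or *Gm53* in the ratio of *Hoxb8* was not tested.

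The DNA-binding partners of HOX proteins were lower as well. Of 9 TALE homeodomain genes, which encode PBX, MEIS and PKNOX proteins, 8 were lower in *Dnmt1*-KO, none past a factor of 2, and the sum was 240.96 FPKM in *Dnmt1*-WT and 154.29 FPKM in *Dnmt1*-KO. *Meis1*, a MEIS family member, was at 46.60 and 25.91 FPKM, and *Pbx3* at 32.95 and 17.44 FPKM. The median log2 ratio of this list was -0.45, beside -0.48 for the Hox genes at 1 FPKM. *Pbx4*, the 1 gene that was higher, was at 1.85 and 2.98 FPKM.

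The genes that hold Hox clusters off or on differed less. Of 31 Polycomb genes, 23 were lower in *Dnmt1*-KO with a median log2 ratio of -0.29, and none reached a factor of 2 either way. *Cbx6*, a Polycomb chromodomain gene and the most abundant of these in *Dnmt1*-WT, was at 79.96 and 58.24 FPKM, and *Ezh2*, the H3K27 methyltransferase, was at 5.39 and 5.28 FPKM. Of 13 Trithorax and H3K27 demethylase genes, 9 were lower with a median of -0.20, and *Dpy30*, a shared subunit of the H3K4 methyltransferases, was at 46.96 and 45.68 FPKM. Genes of retinoic acid synthesis and response were divided, with 7 of 14 higher and 6 lower. *Aldh1a1*, a retinaldehyde dehydrogenase and the most abundant of these, was at 99.72 and 89.54 FPKM.

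Both Cdx genes listed, which act upstream of Hox genes in the embryo and later mark gut epithelium, were at least doubled. *Cdx1* was at 1.05 and 2.20 FPKM and *Cdx2* at 0.57 and 2.23 FPKM. Enterocyte markers moved with them, as 8 of 9 were higher in *Dnmt1*-KO and their sum was 443.3 FPKM in *Dnmt1*-WT and 907.95 FPKM in *Dnmt1*-KO, and the part of epithelial RNA in these values was not tested.

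Genes around the clusters and other transcription factors of the gut mesenchyme were mixed. Of the 13 listed neighbours outside the Hox genes, 4 were higher and 7 lower of the 11 above 0 in both. *Atp5g3*, a mitochondrial ATP synthase gene and the most abundant of these neighbours, was at 613.11 and 577.0 FPKM. *Skap1*, an adaptor gene of T cells beyond the HoxB cluster, was at 2.80 and 1.39 FPKM. Of 11 further transcription factor genes of gut mesenchyme above 0 in both (homeobox, forkhead, bHLH and GATA genes), 7 were lower. *Hand2*, a bHLH factor of mesoderm and enteric neurons, was the most abundant in *Dnmt1*-WT, at 145.15 and 113.44 FPKM. *Hand1*, its relative, was at 128.37 and 43.60 FPKM, and *Foxf2*, a forkhead factor of gut mesenchyme, was at 29.22 and 6.46 FPKM. *Prrx1*, a homeobox gene of fibroblast lineages, was higher at 0.55 and 2.87 FPKM. *Foxf2* thus had a lower ratio than every Hox gene above 0 in both libraries, and the ratio of *Hand1* was close to that of *Hoxb8*.

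**Figure D4:**
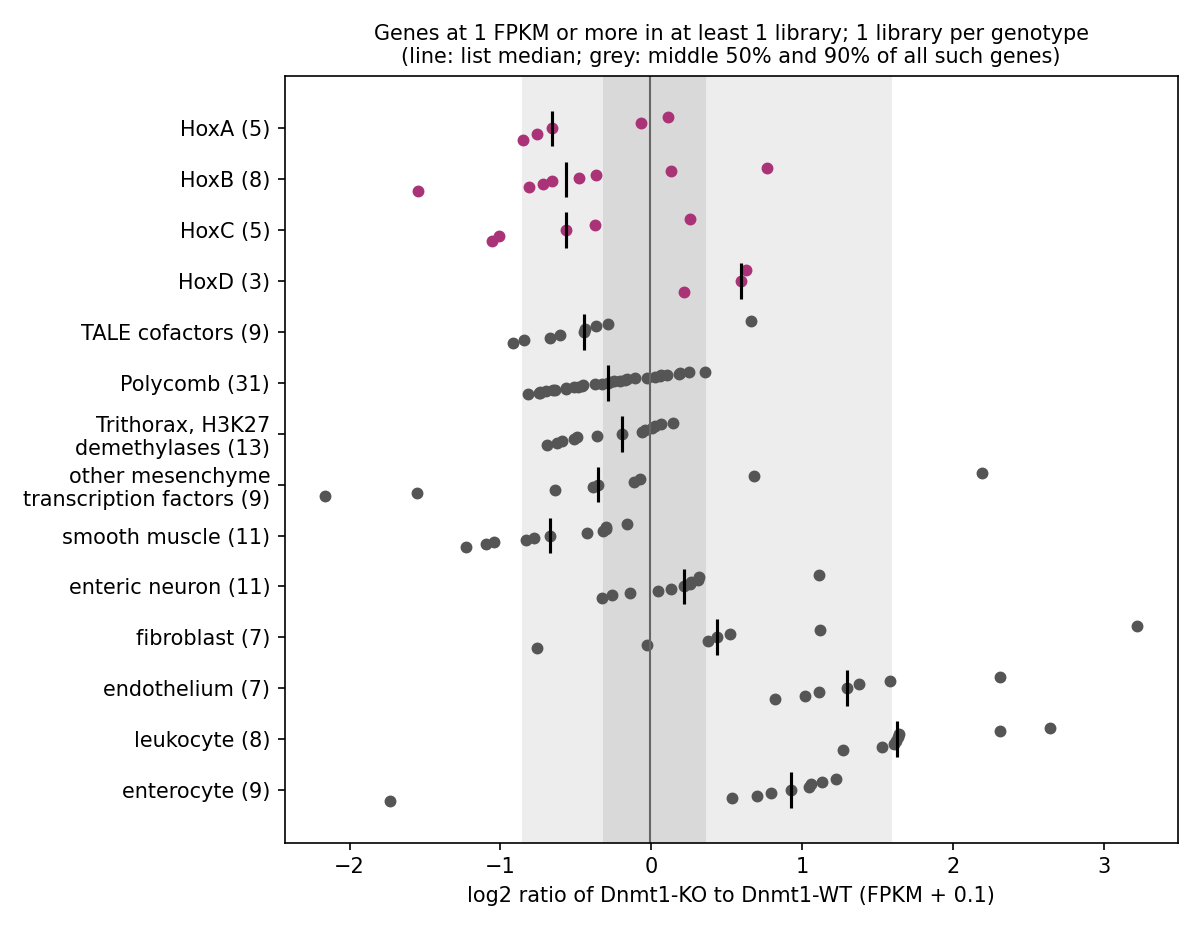
Log2 ratio of *Dnmt1*-KO to *Dnmt1*-WT, with 0.1 FPKM added, for the Hox genes by cluster, related gene lists and cell type markers. Each point is a gene at 1 FPKM or more in at least 1 library each short line the median of those points, and the grey bands hold the middle 50% and 90% of all such genes. The HoxA, HoxB, HoxC, TALE and smooth muscle points lie mostly below 0, and the HoxD, leukocyte and endothelium points above it.

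Cell type markers differed between the libraries beside these genes. The smooth muscle markers were lower in 11 of 11 with a median log2 ratio of -0.67, and their sum was 17112 FPKM in *Dnmt1*-WT and 12328 FPKM in *Dnmt1*-KO, with *Myh11*, the gene whose promoter drives Cre, at 2685 and 1256 FPKM. Markers of interstitial cells of Cajal, the gut pacemaker cells, were lower in 4 of 4 with a median of -0.36. Markers of enteric neurons were higher in 8 of 11 with a median of 0.22, those of enteric glia in 5 of 7 with 0.11 and those of mesothelium in 4 of 6 with 0.21. Those of fibroblasts and PDGFRA cells were higher in 5 of 7 with 0.44. In that list *Pdgfra* itself was lower, at 68.95 FPKM in *Dnmt1*-WT and 40.72 FPKM in *Dnmt1*-KO, as was *Dpt*, at 229.05 and 224.67 FPKM. Leukocyte markers were higher in 8 of 8, summing to 27.45 and 92.70 FPKM, and endothelial markers in 7 of 7, summing to 51.46 and 132.54 FPKM. Adipocyte markers were higher in 6 of the 7 above 0 in both, summing to 125.7 and 1218 FPKM. The Hox median of -0.48 lay between those of the smooth muscle and interstitial cell markers, and the part of a changed cell mix in the Hox differences was not tested.

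Exons bear on single values too. Of the 32 Hox genes, 8 share exon sequence on the same strand with another gene in GENCODE M21, 9 overlap an antisense gene and 14 have either. Values of *Hoxc5* and *Hoxc10*, which share exon sequence on the same strand, are uncertain in the way given for *Hoxd3* and *Hoxd4*. Whether the counting used strand, which bears on the antisense overlaps, is not given in the sources used here.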

How the data were processed

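The deposited table held, for 1 *Dnmt1*-WT and 1 *Dnmt1*-KO library, the FPKM that the authors computed per gene and the number of transcript variants. The authors' ratio (fold) column was not used. The submitters' processing notes name TopHat 1.4.1, Cufflinks 2.0.2 and the mm10 build. Values had 2 decimals and the lowest above 0 was 0.03 FPKM in both libraries. The table holds no counts and the read totals given by the study were not used here, so no counting error is given.

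Ratios were computed over genes above 0 in both libraries, and log2 ratios after adding 0.1 FPKM, which understates the change of low genes. Levels between genes were compared only as FPKM, per length. With 1 library per genotype no test was run. Shares over all listed genes stand beside those of the Hox genes. Python 3.11.15, numpy 2.4.6 and pandas 2.3.3 were used, and the scripts were checked on simulated data. Positions and exon overlaps came from GENCODE M21 (GRCm38), and promoters and microRNAs from RefSeq tables (GRCm38.p6), matched by symbol or microRNA name. The members and lists were chosen with earlier results of these data known. Values in both libraries were given for each Hox gene at 1 FPKM or more in at least 1. Of each list, the genes named were the most abundant and those past a factor of 2 at 1 FPKM, except that most marker genes are given by counts and sums and a few genes are not reported here; *Meis1*, *Pbx3*, *Pbx4*, *Ezh2* and *Gm53* were chosen after their values were seen. Alternatives were 4 scalings, level filters, pseudocounts of 1 and 0.01 FPKM, a factor of 1.5 and, chosen after seeing the data, leaving out Hox genes with same-strand exon overlap.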

Additional observations from a re-analysis of the deposited data

How the results depend on the processing

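No Hox gene at 1 FPKM or more in at least 1 library changed direction under the 4 scalings, and 9 of 25 Hox genes were higher in *Dnmt1*-KO under each. With a pseudocount of 1 or 0.01, which adds the genes at 0 in 1 library, 13 of 30 were higher. The count of Hox genes at least doubled was 2 as deposited and 0 with 1 FPKM required in 1 library or in both, or with a pseudocount of 1. It was 6 with a pseudocount of 0.01, which admits genes at 0 in *Dnmt1*-WT, 5 with the factor at 1.5 and 1 without the genes with same-strand exon overlap. The count at most halved was 3 as deposited and 10 at a factor of 1.5. It was 2 under median, trimmed mean and upper quartile scaling, without the genes with same-strand exon overlap and with a pseudocount of 1, and 4 with a pseudocount of 0.01. The median log2 ratio was -0.35 as deposited, -0.32 under each of these scalings, and -0.41 after scaling to equal FPKM sums. It was -0.48 with 1 FPKM required in 1 library and -0.52 in both. It was -0.065 with a pseudocount of 1 and -0.37 with 0.01, so its size depends on how low genes are treated. No paired analysis was possible because each genotype had 1 library, and leaving out a replicate was not possible for the same reason. The table holds no counts and no counting error was computed, so values of a few hundredths of an FPKM stand here without an error.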
